A study of Mus musculus with 7 samples.

Results

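CD8 effector memory T cells of mouse subcutaneous fat were taken as the cells in which a T cell receptor complex transcript, a CD8 transcript and the chemokine transcript Ccl5 were seen together. A cell was a member if it held at least 1 unique molecular identifier (UMI, 1 captured transcript) of Cd3d, Cd3e or Cd3g, at least 1 of Cd8a or Cd8b1 and at least 1 of Ccl5, and none of Cd4, Cd79a or Pdgfra. The members were thus chosen by measured UMIs of these 9 genes, so their levels within the members are described and not tested. Cells under 500 UMIs or 300 genes, or over 15% mitochondrial UMIs, had been set aside first. The rule found 1286 cells among 39566 kept cells of 7 libraries. The 3 old libraries held 497, 346 and 316 of them, and the 4 young libraries 12, 44, 34 and 37. Other groups used below are the 3524 T cells outside the rule, among them 484 CD8 T cells without Ccl5, and 430 natural killer (NK) cells with an Ncr1 UMI and no Cd3.

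Libraries held 52336665 to 99516882 UMIs in all, over 3138 to 9173 cell barcodes each. Any 2 libraries shared 2 to 19 barcodes of kept cells and 0 of members. The members of a library together held 2231919 to 3844525 UMIs in the old and 89937 to 527110 in the young libraries. A doublet caller marked 3.16% to 4.43% of old and 0% to 8.33% of young members, which were kept because the rule does not use it. Replicates of a group differed by more than sampling noise (chi-square over degrees of freedom 4.03 to 25.05), so each counts as its own sample.

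The study set old against young females of the C57BL/6N strain. The old mice were 18 months old (3 libraries) and the young mice 11 to 12 weeks (4 libraries). Each library is a droplet-based 3' single-cell RNA profile of the stromal vascular fraction, the non-fat cells released from the inguinal subcutaneous fat pad by collagenase. The labels name no genetic change or treatment in either group and do not say whether a library holds 1 mouse, so p-values measure only the spread between these libraries. The labels' protocol gives no step that sorts T cells, and the lymph node that lies in this fat pad is not mentioned in it.

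CD8 effector memory T cells are antigen-experienced lymphocytes that live in tissues, make inflammatory chemokines without delay and carry granules of granzymes and perforin. The transcription factors T-bet and Eomes shape this programme, and Runx3 sets the CD8 lineage. Naive and central memory CD8 cells instead carry Ccr7 and Lef1, and resident memory cells carry the integrin Itgae (CD103). In aged mice, granzyme K-bearing CD8 cells that express Eomes, Tox and Pdcd1 are known from several tissues.

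The promoter of Gzmk is shown because Gzmk, the granzyme that marks this type of cell, separated the ages where Gzma and Gzmb did not. T-box letters are marked because Eomes is a T-box factor and was also higher in the old libraries. Whether Eomes acts on Gzmk was not tested. The 250 bases before its start are chr13:113180966-113181215 on the minus strand of build GRCm38.p6, taken at the start that RefSeq gives. Capitals mark GTGTGA, the core of T-box binding sites, searched on both strands.
Gzmk promoter: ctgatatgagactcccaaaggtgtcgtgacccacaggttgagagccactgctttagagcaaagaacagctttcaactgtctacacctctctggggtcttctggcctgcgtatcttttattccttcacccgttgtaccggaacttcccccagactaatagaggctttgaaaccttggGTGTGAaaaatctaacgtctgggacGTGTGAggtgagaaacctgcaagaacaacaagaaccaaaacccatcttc
This window held 2 matches, with 68 and 43 bases between them and the start of the gene in RefSeq. The first of these lies in the longer word GGTGTGA. Of 32851 mouse promoter windows of this length, 12.3% held GTGTGA and 3.33% held GGTGTGA on either strand. The share of windows with 2 matches was not counted. The same window of Eomes held 0 matches to either word. A match is a description of the letters in this window.

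The share of cells that met the rule was several times higher in old fat. CD8 Ccl5 cells made up 7.50%, 4.64% and 5.15% of kept cells in the old libraries (95% exact Clopper-Pearson intervals 6.87% to 8.16%, 4.18% to 5.15% and 4.61% to 5.73%). In the young libraries they made up 0.256%, 0.745%, 1.19% and 0.630% (intervals 0.132% to 0.446%, 0.542% to 0.999%, 0.822% to 1.65% and 0.444% to 0.867%). Every old library lay above every young one. The mean was 5.76% ± 1.52 (SD, n = 3) in old mice and 0.704% ± 0.383 (SD, n = 4) in young mice, a ratio of 8.19. Fewer other cells and more CD8 Ccl5 cells cannot be told apart in a share. The 2-sided exact permutation test of the logit share over the 35 splits of 7 libraries gave p = 0.0286, the smallest it can give, and 0.0429 after adjustment over the 3 shares compared.

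The share was also taken within T cells (a Cd3 UMI and none of Cd79a or Pdgfra), of which the old libraries held 1130, 1210 and 1306 and the young ones 76, 306, 371 and 411. CD8 Ccl5 cells were 44.0%, 28.6% and 24.2% of T cells in the old libraries, against 15.8%, 14.4%, 9.16% and 9.002% in the young ones. The groups did not overlap. The mean was 32.3% ± 10.4 (SD, n = 3) in old and 12.1% ± 3.51 (SD, n = 4) in young mice (exact permutation p = 0.0286, adjusted p = 0.0429). Every old library stayed above every young one in 3 further settings, but the call within T cells was lost there, with a stricter cell filter (exact permutation p = 0.0857) and with all cells thinned to 1500 UMIs before the rule (0.0571). The third was at least 10 Ccl5 UMIs asked of each cell (0.0571).

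Among CD8 T cells, the fraction with a Ccl5 UMI was 90.7%, 91.8% and 69.3% in the old libraries and 92.3%, 56.4%, 24.5% and 23.3% in the young ones. Here the groups overlapped, because young replicate 1 stood above every old library, on 12 of 13 cells. The means were 83.9% ± 12.7 (SD, n = 3) in old and 49.1% ± 32.6 (SD, n = 4) in young mice, and the difference did not pass (exact permutation p = 0.114). With same-numbered libraries taken as pairs, the tests were repeated. Over the 3 pairs of old and young libraries the 2-sided exact sign-flip test cannot go below 0.25, the value it gave for both passing shares.

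**Figure D1:**
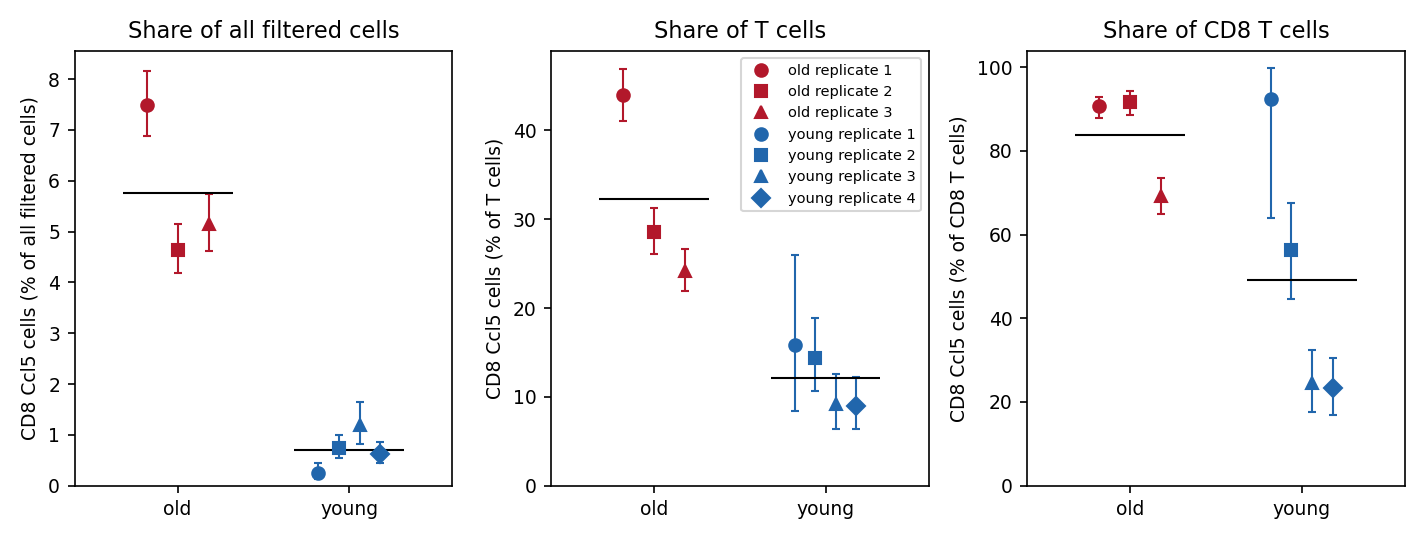
Share of CD8 Ccl5 cells (y axis, percent) among all kept cells, T cells and CD8 T cells, in old (red) and young (blue) libraries; each point is a library with its 95% exact binomial interval, and black lines are group means. Every old library lies above every young one in the first 2 panels, at 4.64% or more against 1.19% or less of kept cells, and the groups overlap in the third.

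Ccl5 attracts T cells, monocytes and eosinophils, and its level chose the members, so its values are given as a description. The median member held 53, 49.5 and 87 Ccl5 UMIs in the old libraries, against 81, 36, 8.5 and 14 in the young ones. A single Ccl5 UMI was the only one in 2.21%, 0.578% and 4.43% of old members, against 0%, 4.55%, 23.5% and 21.6% of young members. Young replicates 3 and 4 therefore held many cells at the edge of the rule. B cells (a Cd79a UMI and no Cd3), which should lack Ccl5, held a Ccl5 UMI in 9.39% to 12.3% of cells in old and 3.31% to 10.0% in young libraries. Their median depths were 4390 to 7423 UMIs in old and 4675.5 to 18040 in young libraries. The median member held 7230, 5443 and 6124 UMIs in the old libraries, against 6263, 5820.5, 13422 and 9755 in the young ones. Just outside the rule stood 51, 31 and 140 CD8 cells without Ccl5 in the old libraries and 1, 34, 105 and 122 in the young ones.

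The markers of the label were not equally present at both ages. Cd8a was seen in 83.2% to 87.3% of old and 91.7% to 97.3% of young members, and Cd8b1 in 81.5% to 92.4% and 91.9% to 100%. Gzmk was seen in 40.4%, 60.4% and 51.6% of old members, but in 33.3%, 11.4%, 2.94% and 2.70% of young ones. Markers of naive and central memory cells went against the label in some young libraries. Ccr7, the receptor that guides T cells into lymph nodes, was seen in 82.4% of the members of young replicate 3 and 62.2% of those of young replicate 4. It was seen in 33.4%, 10.1% and 17.4% of old members and in 8.33% and 6.82% of those of young replicates 1 and 2. The cells are therefore called CD8 Ccl5 cells below.

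Levels were compared on counts summed over the members of each library. Young replicate 1, with 12 cells, had too few for this and was left out, which leaves 3 old against 3 young libraries of 34 cells or more. Where at least 10 Ccl5 UMIs were asked of each member, the minimum fell from 20 to 10 members and young replicate 1 entered the fit. Levels are given as CPM, a gene's UMIs over all UMIs of the members on the usual scale, with TMM scaling between libraries unless called unscaled. Of 8475 genes tested with edgeR's quasi-likelihood test, 0 rose and 1 fell in old mice at an adjusted p under 0.05, which is 0.0118% of genes. DESeq2 called 7 higher and 12 lower (0.0826% and 0.142% of genes, 0.224% in both directions). At an unadjusted p under 0.05 edgeR had 429 genes, 5.06% of those tested, and DESeq2 311, 3.67%. In 475 genes (5.60%) every old library lay above every young one, and in 390 (4.60%) every old library lay below.

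Socs2 was the gene that fell. It encodes a suppressor of cytokine signalling that is induced by STAT5 and restrains growth hormone and cytokine receptors. Its level was 17.3, 17.1 and 24.7 CPM in the old libraries, against 121.2, 80.1 and 116.3 CPM in young replicates 2, 3 and 4. All old libraries were lower than all young ones, including young replicate 1, which held 55.6 unscaled CPM. The log2 fold change was -2.42 (SE 0.30, edgeR adjusted p = 0.0391; 2.2e-07 in DESeq2). The gene (ENSMUSG00000020027) lies on chromosome 10 at 95385362 to 95417180 on the minus strand (build GRCm38, GENCODE M21). After each cell was thinned to 1500 UMIs, Socs2 was seen in 2.72%, 2.72% and 2.80% of old members, against 8.15%, 16.0%, 3.62% and 12.4% of young members. In B cells this share was 1.22% to 6.29%, a range that also holds the shares of the old members and young replicate 3. CD8 cells without Ccl5 showed Socs2 in 0.133% to 4.95% of thinned cells in old libraries and 0.637% in young replicate 3. They were above the members only in old replicate 2. The part of free RNA in these shares was not tested. The Socs2 call was lost in edgeR without old replicate 1 (adjusted p = 0.0758), old replicate 2 (0.0854), young replicate 2 (0.0612), young replicate 3 (0.0584) or young replicate 4 (0.352). With the replicate number as a block the fold was -2.25 and the adjusted p 0.137, and 0 genes were called lower.

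**Figure D2:**
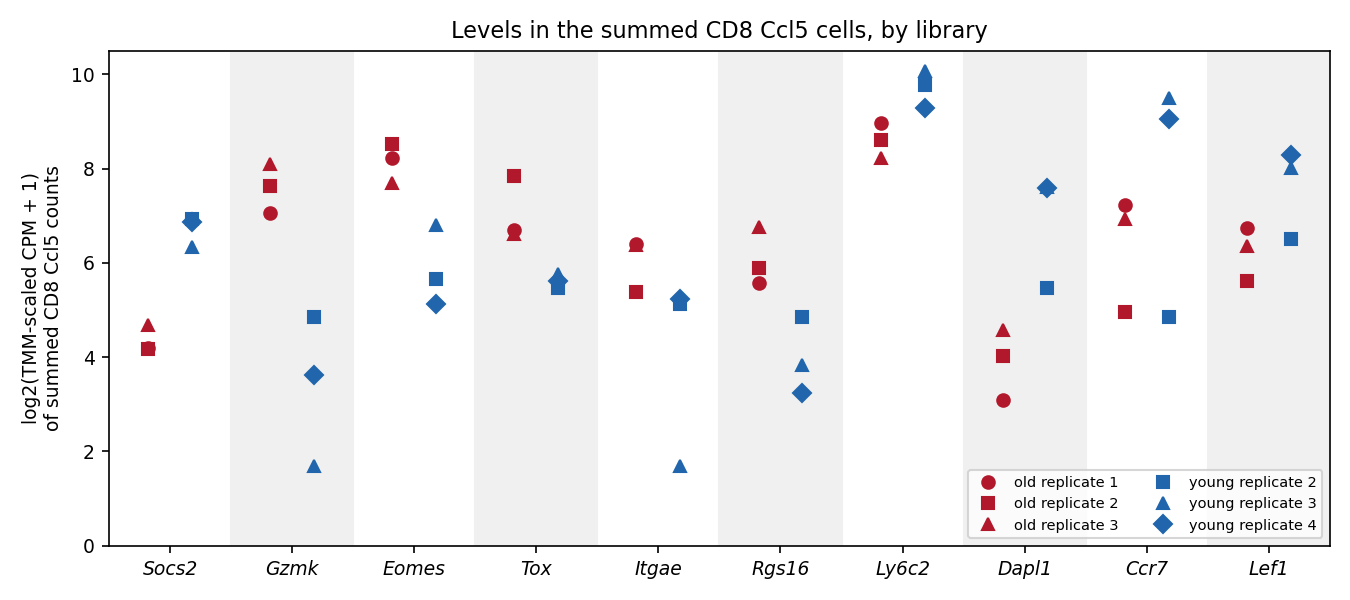
Levels of 10 genes in the summed CD8 Ccl5 cells (y axis, log2 of TMM-scaled CPM plus 1) in 3 old (red, left) and 3 young (blue, right) libraries; each point is a library. For Socs2, Ly6c2 and Dapl1 the old points lie below all young points, for Gzmk, Eomes, Tox, Itgae and Rgs16 above them, and for Ccr7 and Lef1 the ages overlap; of the 10, Socs2 alone passed the edgeR test.

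Among the effector molecules, granzyme K stood apart. Gzmk encodes a tryptase-like granule protease of memory CD8 cells. Its level was 133, 198 and 272 CPM in the old libraries and 28.0, 2.22 and 11.4 CPM in young replicates 2, 3 and 4. The old libraries did not overlap the young ones, and the young libraries varied over 10-fold among themselves. In young replicates 2, 3 and 4 only 5 of 44, 1 of 34 and 1 of 37 members held a Gzmk UMI. The young levels, their spread and the size of the fold therefore rest on few cells. The log2 fold change was 3.96 (SE 0.56), which missed the edgeR threshold (adjusted p = 0.0666) and passed in DESeq2 (3.47e-08). It passed in edgeR with at least 2 Ccl5 UMIs asked of each member (log2 3.57, adjusted p = 0.0174), at least 10 (3.20, 0.0289) or equal mean UMIs per cell (3.49, 0.0318). It also passed without old replicate 1 (adjusted p = 0.0481) or young replicate 2 (0.0379), and over all settings the fold ranged from 3.20 to 5.01. After thinning, Gzmk was seen in 16.3%, 28.2% and 27.8% of old members, against 9.98%, 3.42%, 0.612% and 2.37% of young ones. The B cell share was at most 0.0869% in any library. The gene (ENSMUSG00000042385) lies on chromosome 13 at 113171608 to 113225908 on the minus strand in GENCODE M21, whose gene model reaches further upstream than the RefSeq start used for the promoter above.

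Eomes, the T-box factor of memory CD8 and NK cells, showed the same order of libraries by age. It had 297, 369 and 205 CPM in the old libraries, against 49.7, 111 and 34.1 CPM in the young ones. The lowest old library lay well above the highest young library. Its log2 fold change was 2.13 (SE 0.42, edgeR adjusted p = 0.310; 0.00106 in DESeq2). In thinned cells Eomes was seen in 29.7%, 41.2% and 21.1% of old and 5.45%, 7.56%, 13.2% and 6.69% of young members, against at most 0.232% of B cells. Eomes (ENSMUSG00000032446) lies on chromosome 9 at 118478212 to 118486132 on the plus strand.

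Most other granule genes overlapped between the ages. Of 18 cytotoxic granule genes tested, 0 passed edgeR in either direction, 2 (Gzmk and Cst7) had all old libraries above all young ones, against 5.60% of all genes, and 0 had them below. The median log2 fold change of the list was 0.30, against 0.0053 over all genes tested. Cst7, a cathepsin inhibitor that controls granzyme activation, had 113, 104 and 133 CPM in old and 46.6, 64.5 and 82.3 CPM in young libraries (log2 0.85, SE 0.29, edgeR adjusted p = 0.716). Gzmb, the granzyme of killing by caspase activation, had 63.9, 73.6 and 442 CPM in old and 99.4, 40.0 and 187 CPM in young libraries, so 1 old library was high and the ages overlapped. Gzma had 126, 17.1 and 540 CPM in old and 258, 218 and 116 CPM in young libraries. Nkg7, a granule membrane protein, was seen in 70.4%, 80.8% and 85.8% of thinned old members and 92.6%, 78.9%, 63.4% and 57.9% of young ones. Prf1, which forms the pore for granzymes, was seen in only 1.34% to 2.54% of old and 0.735% to 3.37% of young members. None of these overlapping genes separated the ages.

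Tox, Pdcd1 and Lag3 had higher summed levels in every old library, with no test passed. Of 19 checkpoint and exhaustion genes tested, 6 had all old libraries above all young ones, against 5.60% of all genes, and 0 below. The 6 were Pdcd1, Lag3, Tox, Batf, Bhlhe40 and Rgs16, and 0 of the 19 passed edgeR in either direction. The list's median log2 fold change was 0.55. Tox, a nuclear factor of persistently stimulated T cells, had 103, 229 and 96.6 CPM in old and 43.5, 53.4 and 48.2 CPM in young libraries (log2 1.55, SE 0.38, edgeR adjusted p = 0.455). Tox was seen in 13.5%, 31.9% and 12.4% of thinned old members and 6.59%, 8.62%, 7.68% and 7.90% of young ones, with old replicate 2 high. Pdcd1, which encodes PD-1, had 15.0, 41.6 and 78.4 CPM in old and 12.4, 6.67 and 11.4 CPM in young libraries (log2 2.16, SE 0.68, edgeR adjusted p = 0.616). Old replicate 1 was close to the highest young library. After thinning the ages overlapped for Pdcd1, which was seen in 2.08%, 6.44% and 10.2% of old and 0%, 3.16%, 1.85% and 2.75% of young members. Rgs16, a regulator of G protein signalling, had 46.8, 58.0 and 107 CPM in old and 28.0, 13.3 and 8.51 CPM in young libraries (log2 2.11, SE 0.48, edgeR adjusted p = 0.392). Lag3 had 17.1, 27.6 and 57.9 CPM in old and 9.32, 0 and 5.68 CPM in young libraries, and its thinned shares overlapped as well (2.23%, 5.75% and 6.91% in old and 0%, 2.26%, 0% and 1.47% in young libraries). Havcr2 and Tigit, 2 further inhibitory receptors, did not pass the filter on low counts.

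Transcription factors of effector cells gave a similar picture, in part through the same genes. Bhlhe40 and Batf are also on the checkpoint list, and Runx3 is also on the tissue residence list below. Of 10 tested, 4 (Eomes, Runx3, Bhlhe40 and Batf) had all old libraries above all young ones, against 5.60% of all genes, 0 below, and 0 passed edgeR, with a median log2 fold change of 0.54. Runx3 had 254, 253 and 314 CPM in old and 177, 151 and 128 CPM in young libraries (log2 0.85, SE 0.27, edgeR adjusted p = 0.616). Bhlhe40 had 272, 353 and 500 CPM in old and 236, 158 and 165 CPM in young libraries. Tbx21, which encodes T-bet, overlapped, with 88.4, 92.2 and 123 CPM in old and 174, 24.5 and 36.9 CPM in young libraries.

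Among genes of circulating and terminal effector cells, Ly6c2 separated the ages. Of 11 tested, 10 had negative fold changes, 2 (Ly6c2 and Klre1) had all old libraries below all young ones, against 4.60% of all genes, and 0 passed edgeR. Klre1 is also one of 5 NK markers, whose summed level was 8.06 to 45.8 unscaled CPM in old and 46.3 to 112 in young members. Much of this sum is Klre1 itself, at 4.42, 23.3 and 26.2 CPM in old and 100.1, 48.1, 49.3 and 38.1 in young members. The sum is therefore no separate measure of NK cells, whose part was not tested. The median log2 fold change of the list was -0.48. Ly6c2, a surface protein of memory CD8 cells in blood and lymphoid organs, had 502, 392 and 301 CPM in old and 873, 1083 and 627 CPM in young libraries (log2 -1.11, SE 0.31, edgeR adjusted p = 0.527). It was seen in 36.3%, 27.6% and 22.2% of thinned old members, against 42.6%, 52.0%, 61.6% and 43.3% of young ones, a gap that held in all 7 libraries. Klrg1, an inhibitory receptor of terminal effector cells, was seen in 1.40%, 1.13% and 2.88% of old and 16.0%, 8.48%, 0% and 7.43% of young members. The 0 rests on 34 cells and allows a share of up to 8.82%. S1pr1, which lets T cells leave tissue, had 123, 103 and 88.2 CPM in old and 80.8, 263 and 338 CPM in young libraries, and the ages overlapped.

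Of 15 tissue residence genes tested, 3 (Itgae, Qpct and Runx3) had all old libraries above all young ones, against 5.60% of all genes, 0 below, and 0 passed edgeR, with a median log2 fold change of 0.25. Itgae, the CD103 chain that binds E-cadherin, had 82.99, 40.5 and 82.1 CPM in old and 34.2, 2.22 and 36.9 CPM in young libraries (log2 1.56, SE 0.58, edgeR adjusted p = 0.806). It was seen in 10.8%, 4.51% and 9.83% of thinned old members and 1.59%, 2.94%, 0.362% and 3.67% of young ones. The gap between old replicate 2 and young replicate 4 was small. CD8 cells without Ccl5 showed Itgae in 3.23%, 5.31% and 5.18% of thinned cells in old libraries. In young libraries they showed it in 0% (of 1 cell), 6.09%, 8.51% and 5.51%, so Itgae was not limited to the members. Cxcr6, a receptor of tissue memory cells, overlapped, with 5.74%, 10.0% and 12.8% in old and 32.4%, 14.4%, 5.23% and 14.0% in young libraries. Cd69, a further mark of residence and of recent activation, was seen in 29.1%, 30.9% and 26.7% of old and 9.08%, 37.3%, 25.6% and 21.4% of young members.

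**Figure D3:**
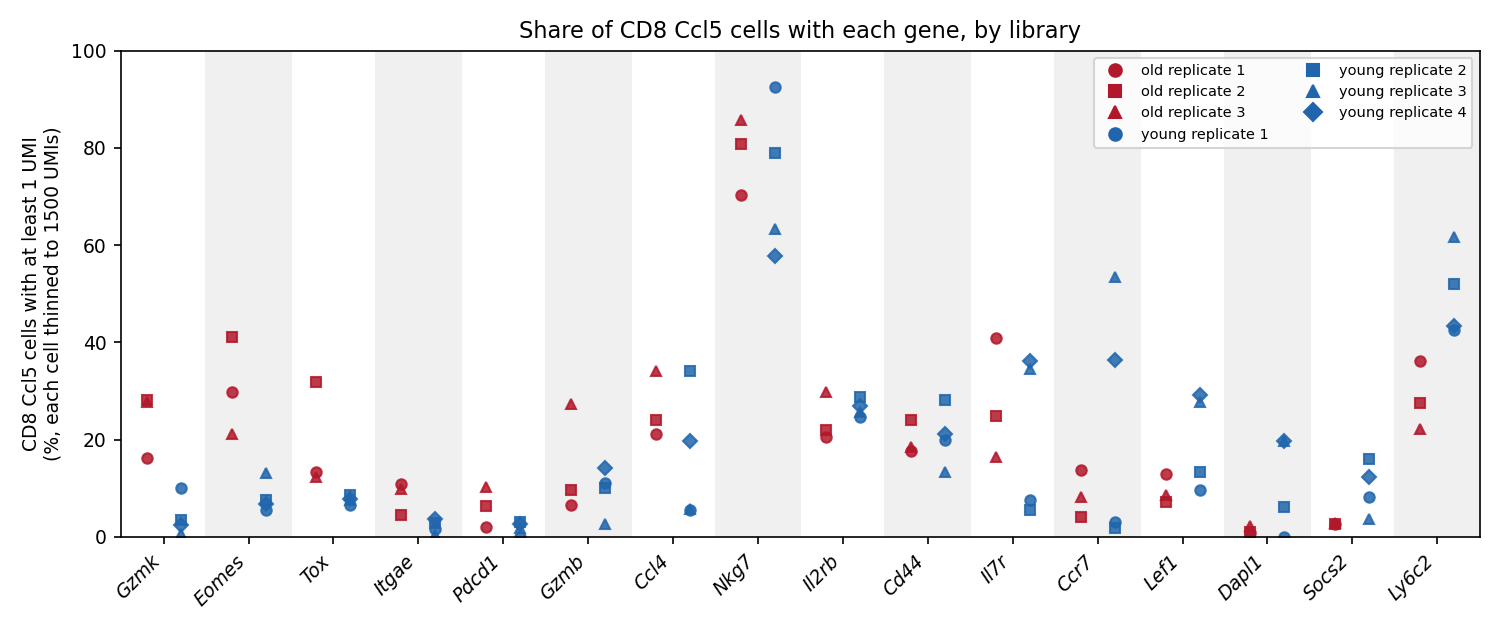
Share of CD8 Ccl5 cells with at least 1 UMI of each of 16 genes (y axis, percent, each cell thinned to 1500 UMIs) in old (red, left) and young (blue, right) libraries; each point is a library. The old points lie above all young points for Gzmk, Eomes, Tox and Itgae and below them for Socs2 and Ly6c2; Ccr7, Lef1 and Dapl1 are high in young replicates 3 and 4.

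All 15 naive and stem-like memory genes tested had negative fold changes, against 49.3% of all genes, with a median of -0.57 on the log2 scale. Only 1 (Dapl1) had all old libraries below all young ones, against 4.60% of all genes, and 0 passed edgeR. Dapl1, a gene of quiescent CD8 T cells, had 7.50, 15.2 and 22.9 CPM in old and 43.5, 196 and 193 CPM in young libraries (log2 -3.29, SE 0.54, edgeR adjusted p = 0.105; 3.4e-06 in DESeq2). The young values came largely from replicates 3 and 4, and in young replicate 1 Dapl1 was at 0. Ccr7 had 148, 30.0 and 122 CPM in old and 28.0, 723 and 533 CPM in young libraries, so the ages overlapped through young replicate 2 (log2 -2.10, SE 0.82, edgeR adjusted p = 0.853). Lef1, a factor of naive T cells, had 106, 47.9 and 80.7 CPM in old and 90.1, 256 and 312 CPM in young libraries. Tcf7, which keeps memory cells self-renewing, had 227, 171 and 147 CPM in old and 152, 289 and 196 CPM in young libraries, and Il7r had 435, 219 and 136 CPM in old and 37.3, 365 and 417 CPM in young libraries. Neither separated the ages. The summed level of the 5 naive T markers was 370 to 633 unscaled CPM in old and 300.2 to 1421 in young libraries, and its part in the gene differences was not tested. Young replicates 1 and 2, with 300.2 and 372 CPM, were within or below the old range.

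The differences in Gzmk, Eomes and Ly6c2 were looked at again in members with at least 10 Ccl5 UMIs, of which the old libraries held 478, 326 and 288 and the young libraries 12, 41, 15 and 21. Gzmk was then seen in 16.8%, 28.6% and 29.2% of thinned old and 9.98%, 3.67%, 1.39% and 0% of young members. Eomes was seen in 30.3%, 42.3% and 21.5% of old and 5.45%, 8.12%, 18.1% and 7.09% of young members. Ly6c2 was seen in 36.7%, 27.7% and 23.05% of old and 42.6%, 50.9%, 64.1% and 46.5% of young members. Every old library still lay on the same side of every young one for the 3 genes. Ccr7 was still seen in 40.1% and 26.7% of the members of young replicates 3 and 4, against 13.1%, 3.52% and 6.06% in the old libraries.

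Most chemokine and cytokine genes of the members overlapped between the ages. Of 12 tested, 1 (Tnf) had all old libraries above all young ones, against 5.60% of all genes, 0 below, and 0 passed edgeR. Tnf had 39.0, 36.2 and 46.7 CPM in old and 21.8, 4.45 and 25.5 CPM in young libraries (log2 1.30, SE 0.46, edgeR adjusted p = 0.764). Its thinned shares overlapped, at 5.79%, 6.29% and 5.27% in old and 1.14%, 3.31%, 0.658% and 5.47% in young members. In B cells the Tnf share was 1.63% to 6.50%. Ifng, the macrophage-activating interferon, had 134, 188 and 260 CPM in old and 534, 22.2 and 68.1 CPM in young libraries. Ccl4 had 295, 332 and 711 CPM in old and 786, 37.8 and 448 CPM in young libraries. Xcl1, which attracts cross-presenting dendritic cells, had 221, 124 and 468 CPM in old and 538, 125 and 136 CPM in young libraries. In these 3 genes young replicate 2 was the highest young library. Of 21 receptors of chemokines and cytokines tested, 2 (Il12rb1 and Il10ra) had all old libraries above all young ones, against 5.60% of all genes, 0 below, and 0 passed. Il10ra, a chain of the interleukin 10 receptor, had 50.9, 82.9 and 63.5 CPM in old and 37.3, 6.67 and 17.0 CPM in young libraries (log2 1.77, SE 0.46, edgeR adjusted p = 0.465).

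Interferon response genes leaned to the old side. Of 24 tested, 23 had positive fold changes, against 50.7% of all genes, with a median of 0.54 on the log2 scale. In 4 of them, Iigp1, Isg20 and Ly6a included, all old libraries lay above all young ones, against 5.60% of all genes, in 0 below, and 0 passed edgeR. Isg20, an interferon-induced exonuclease, had 42.9, 38.9 and 37.3 CPM in old and 9.32, 15.6 and 19.9 CPM in young libraries (log2 1.40, edgeR adjusted p = 0.456). Of 15 genes of MHC class I and the immunoproteasome, 2 (Tap2 and Psmb9) had all old libraries above all young ones and 0 below. The same 5.60% above and 4.60% below over all genes stand beside this and the next counts. Of 18 immediate early genes, which tissue dissociation also induces, 3 (Fos, Atf3 and Zfp36) had all old libraries below the 3 young ones of the fit and 0 above. In young replicate 1, outside the fit, Atf3 was at 0 unscaled CPM, below the old libraries with 66.6, 99.5 and 97.7. With at least 10 Ccl5 UMIs asked of each member, young replicate 1 also entered the fit. The log2 fold changes of Fos, Atf3 and Zfp36 were then positive (0.62, 0.90 and 0.94). In that setting edgeR called Atf3 higher in the interaction with other T cells (1.79, adjusted p = 0.0449). Whether the Ccl5 limit or the added library turned the signs was not tested. Of 23 T cell receptor signalling genes, 2 (Lat and Fyn) had all old libraries above and 2, Ptpn6 among them, below, and of 13 NK receptors 1 (Klre1) below and 0 above. Of 15 genes of lymphocyte energy metabolism 1 (Hk2) lay below and 0 above. No gene of the heat shock (11 tested) or proliferation list (18 tested) separated the ages. Of the innate-like T list only 2 genes were tested, and both overlapped. Of 12 genes of senescence and age-related inflammation 3 (Cdkn2a, Il1b and Tnf) lay above and 0 below. No member of these lists passed edgeR in either direction over all members, while DESeq2 called Atf3 lower there and Il1b higher. Iigp1 and Il1b have their highest level in other cells of the tissue, endothelial cells and neutrophils. Cdkn2a, which encodes p16, was at a low level of 7.24, 11.3 and 10.7 CPM in old and 3.11, 0 and 0 CPM in young libraries, and its highest level in another cell class was 14.3 CPM, in plasma cells.

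**Figure D4:**
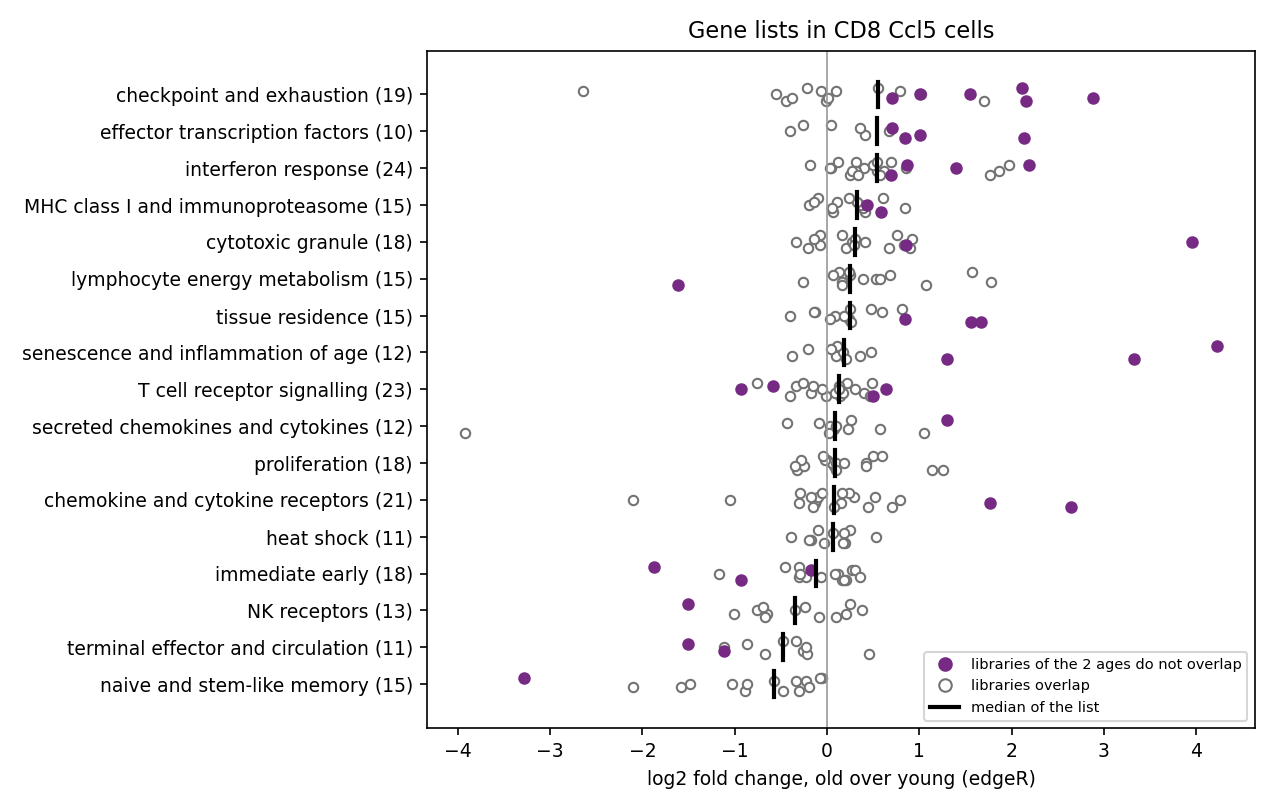
Log2 fold changes, old over young, of the tested members (circles) of 17 gene lists in CD8 Ccl5 cells, with the number tested in brackets and the list median as a black bar; purple circles are genes whose libraries do not overlap between the ages. Naive genes lie left of 0 with a median of -0.57, and checkpoint genes have a median of 0.55.

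The remaining genes that DESeq2 called were named after their values were seen. Camk2n1, an inhibitor of calcium and calmodulin-dependent kinase II, had 121, 113 and 131 CPM in old and 40.4, 28.9 and 22.7 CPM in young libraries, a narrow range at each age (log2 2.00, SE 0.30, edgeR adjusted p = 0.0666; 0.000743 in DESeq2). St6gal1, a sialyltransferase of lymphocyte surfaces, had 5.69, 8.95 and 5.13 CPM in old and 12.4, 35.6 and 51.1 CPM in young libraries. Dusp10, a phosphatase of the JNK and p38 kinases, had 82.0, 42.4 and 84.0 CPM in old and 140, 265 and 250 CPM in young libraries (log2 -1.65, SE 0.35, edgeR adjusted p = 0.347). Atp1b1, a sodium pump subunit, and Itm2a, a membrane protein of activated T cells, were also lower in all old libraries (log2 -2.95 and -1.61), as were Itih5 and Postn. Cd200, Ifngr2 and Mt1 overlapped between the ages although DESeq2 called them lower. For Cd200 the fold turned round when 2 Ccl5 UMIs were asked of each member (log2 0.33, against -2.64). Itih5 and Postn are over 10 times higher in stromal cells.

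Several called genes belong to other cells of the tissue. Aqp1, Cldn5 and Gpihbp1, genes of endothelial cells, were higher in all old libraries than in the 3 young ones, with log2 fold changes of 3.498, 4.70 and 2.84. Their levels in endothelial cells were 1907, 1617 and 1838 CPM, over 10 times those in the members. In young replicate 1, outside the fit, Cldn5 had 166.8 unscaled CPM, above all old libraries. With at least 10 Ccl5 UMIs asked, and young replicate 1 in the fit, 13 genes passed edgeR as higher in old members, of 3925 tested. They were Gzmk, Camk2n1, Ier3, Klf4, Cxcl2 and Plin2 with 7 genes of macrophages and antigen-presenting cells (Cd74, H2-Aa, H2-Ab1, H2-Eb1, C1qb, Lyz2 and Wfdc17). The 3 endothelial markers together reached 62.8 to 208 unscaled CPM in old and 19.2 to 389 in young members, and their part in these differences was not tested. Epithelial markers reached 1709 CPM in young replicate 3 but 34.3 to 49.3 in the old libraries and 32.1 to 189 in the other young ones. Neutrophil markers reached 884 CPM in old replicate 1, against 2.69 to 14.4 CPM in the other old libraries and at most 6.41 CPM in young ones. Il1b, which neutrophils carry at a high level, had 64.4, 16.7 and 72.3 CPM in old and 3.11, 4.45 and 0 CPM in young members. Stromal markers were 185 to 492 CPM in old and 445 to 783 CPM in young members, and macrophage markers 275 to 1611 and 62.6 to 1171 CPM. B cell markers were at most 13.5 CPM in any library. The 2 plasma cell markers were at 7.42 to 26.9 CPM in old and at 0 in all young members. Ncr1 was at 0 in 2 libraries.

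Set beside T cells outside the rule, the members carried the genes of cytotoxic cells, as a description without a test. On the log2 scale, averaged over the 6 libraries of the gene fit, Ly6c2 was 1.95 higher, Nkg7 1.91, Xcl1 1.68, Ctsw 1.66, Gzmk 1.55, Eomes 1.52 and Fasl 1.42. Tnfrsf4, which encodes OX40 of activated and regulatory CD4 cells, had a difference of -2.64, and Izumo1r, a folate receptor of regulatory T cells, one of -1.98. Il17a and Cd163l1, genes of gamma delta T cells, had differences of -2.17 and -2.05. The lowest differences also included genes of other cells, the endothelial Cldn5 (-2.51) and Gpihbp1 (-2.42) and the epithelial Krt18 (-2.26). The part of RNA from other cells in this comparison was not tested. Tnfrsf4 and Izumo1r were lower in the members of each of these 6 libraries.

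Whether a difference with age was particular to the members was tested against the other T cells. Of 11304 genes, edgeR called 0 in the interaction of cell group and age (582 at an unadjusted p under 0.05, 5.15%), and DESeq2 called 0 higher and 3 (Socs2, Dusp10 and St6gal1) lower, 0.0265%. Gzmk in other T cells had 50.3, 28.8 and 46.6 unscaled CPM in old libraries and 4.27, 0, 0.262 and 0.281 CPM in young ones, so the old libraries were higher there too. The log2 fold change in the members minus that in other T cells was -3.05 (SE 1.16, edgeR adjusted p = 0.942). Gzmk in other T cells was at or near 0 in the young libraries of the fit, so the size of this difference is not well determined. Eomes in other T cells had 150, 53.9 and 51.2 CPM in old and 4.27, 24.3, 9.45 and 21.9 CPM in young libraries. For Eomes the difference between the fold changes was 0.16 (SE 0.71, edgeR adjusted p = 0.995). Socs2 in other T cells had 51.0, 75.1 and 48.7 CPM in old and 91.9, 80.2, 19.7 and 39.3 CPM in young libraries, which overlapped. The Socs2 difference between the fold changes was -2.74 (SE 0.34) and did not pass (edgeR adjusted p = 0.181; 2.9e-06 in DESeq2). It passed in edgeR with at least 2 Ccl5 UMIs asked of each member (-2.99, adjusted p = 0.0157) and with at least 10 (-3.13, 0.00693). Dusp10 passed under the same settings (-1.45, adjusted p = 0.0419, and -1.29, 0.0394).

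CD8 T cells without Ccl5 and NK cells were set beside the members. After thinning, CD8 cells without Ccl5 showed Eomes in 9.95%, 2.26% and 2.94% of cells in old libraries, and in 0%, 0%, 1.78% and 0.869% in young ones. They showed Ccr7 in 29.6%, 26.5% and 48.2% in old and 31.2%, 33.5%, 78.5% and 67.2% in young libraries, where young replicate 1 held 1 such cell. NK cells showed Eomes in 22.6% to 28.8% of cells in old and 21.6% to 35.03% in young libraries, and the ages overlapped. NK cells showed Gzma in 45.9% to 74.1% of cells in old and 70.2% to 78.7% in young libraries, far above the members, and Gzmk in at most 1.61%.

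In the old libraries the members were numerous enough to ask which genes were seen in the same cells. Each cell was thinned to 1500 UMIs, so that depth did not set the shares. Values are means over 50 draws and descriptions without a test. Cells with a Gzmk UMI numbered 81.6, 97.4 and 87.4 in the 3 old libraries, and those with an Itgae UMI 53.9, 16.1 and 30.6. The young libraries had too few such cells.

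Eomes was more frequent in the old members that held Gzmk. It was seen in 43.8%, 52.1% and 35.4% of old members with Gzmk and in 26.7%, 35.9% and 15.7% of those without. Tox was seen in 24.9%, 39.3% and 18.6% of those with Gzmk and in 11.5%, 29.2% and 9.8% of those without. Pdcd1 had 3.5%, 7.6% and 15.1% against 1.8%, 5.9% and 8.3%. Ly6c2 ran the other way, with 18.1%, 20.5% and 13.9% of members with Gzmk and 39.8%, 30.5% and 25.3% of those without. Of 54 genes compared, 20 were seen more often and 12 less often with Gzmk in all 3 old libraries.

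The members with Itgae had a different profile. Xcl1 was seen in 42.7%, 55.5% and 71.0% of old members with Itgae and in 16.6%, 11.7% and 24.0% of those without. Rgs1, a brake on chemokine receptor signalling, was seen in 73.7%, 81.5% and 84.8% with Itgae and 35.1%, 29.2% and 46.2% without. Gzmb was seen in 14.0%, 35.9% and 67.2% with Itgae and 5.7%, 8.4% and 23.01% without. Cd160, a receptor of intraepithelial and cytotoxic lymphocytes, had 19.9%, 25.6% and 33.6% against 5.3%, 4.7% and 9.6%. Eomes, Tox, Klf2 and Ccr7 were less frequent in them. Eomes was seen in 10.7%, 6.8% and 2.4% of members with Itgae and in 31.8%, 42.1% and 23.2% of those without. Tox had 7.4%, 8.7% and 5.7% against 14.4%, 33.2% and 12.9%, while Pdcd1 kept no common direction. Klf2, the factor that drives S1pr1, had 18.6%, 9.7% and 10.2% against 40.6%, 35.2% and 46.3%. Ccr7 had 1.3%, 0.6% and 1.0% against 15.2%, 4.3% and 8.8%. Of the 54 genes, 11 were seen more often and 28 less often with Itgae in all 3 old libraries.

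**Figure D5:**
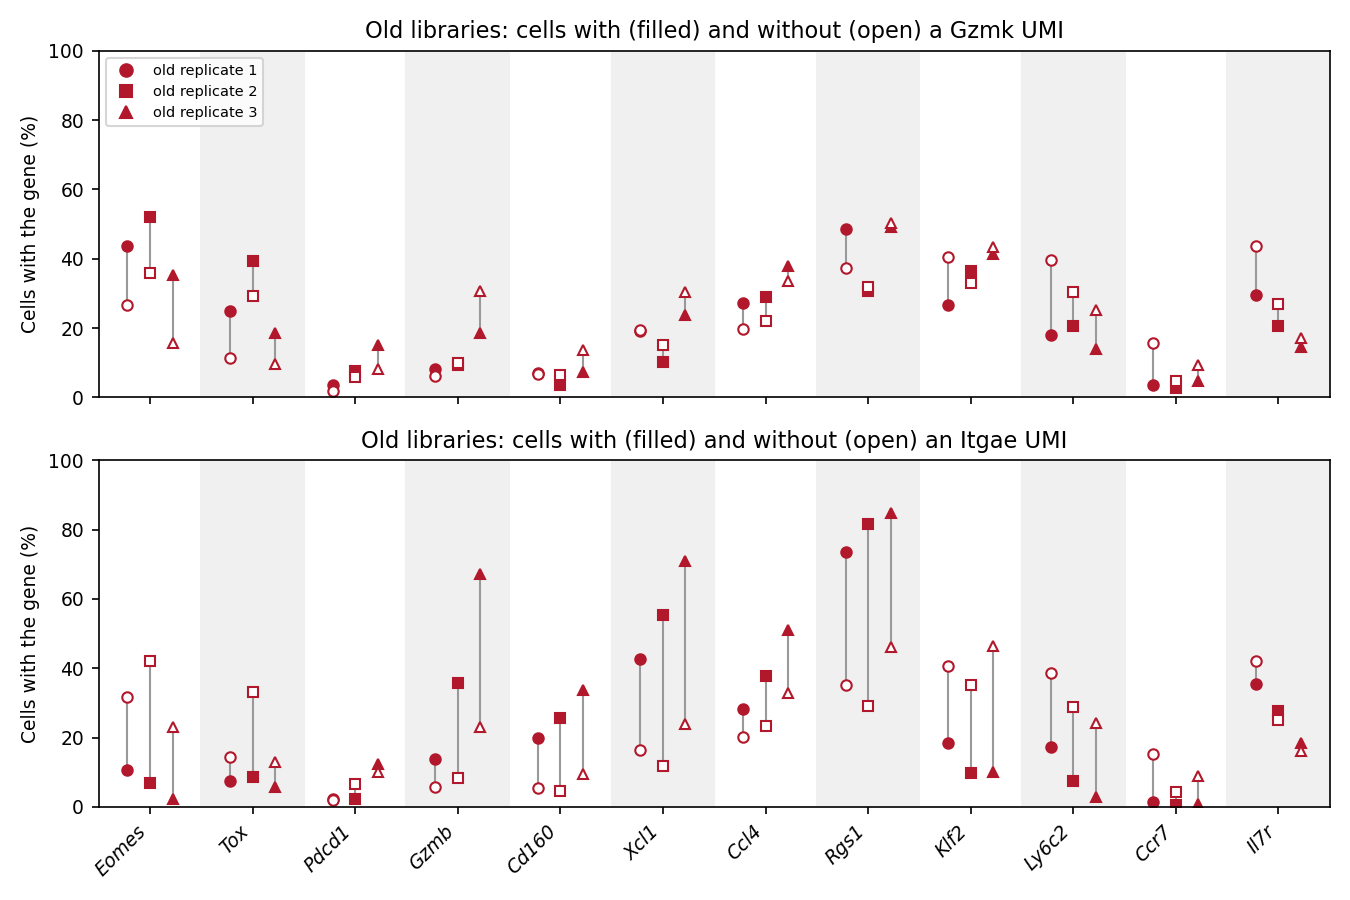
Share of old CD8 Ccl5 cells with each of 12 genes (y axis, percent, after thinning to 1500 UMIs), split by the presence (filled) or absence (open) of a Gzmk UMI (top) or an Itgae UMI (bottom); symbols are the 3 old libraries. Eomes and Tox are higher with Gzmk, and Xcl1, Rgs1 and Gzmb are higher and Eomes, Klf2 and Ly6c2 lower with Itgae, in each library.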

How the data were processed

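The authors deposited 1 matrix of raw UMI counts per library, whose smallest barcode held 500 to 503 UMIs. The submitters' processing notes name mm10 as the genome and Cell Ranger (version 4.0.0) as the tool. Counts of members were summed per library and tested with edgeR 4.0.16 (filterByExpr, TMM, quasi-likelihood, Benjamini-Hochberg over all genes tested) in R 4.3.3. Libraries needed 20 members, which left out young replicate 1. Where 10 Ccl5 UMIs were asked of each member, 10 members were enough and all 7 libraries entered. DESeq2 1.42.0 was an alternative. Members and gene lists were chosen with earlier results of these data known. Named genes were those that passed without overlap, a fixed list of 52 genes, the 2 lowest p-values of each list, and called genes that are higher in other cells. Genes that DESeq2 called were named after their values were seen.

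Shares were compared by exact permutation of logits, with 0.5 cells added, and the library as the replicate. Thinned shares are the expected shares after each cell is cut to 1500 UMIs, with shallower cells left out (2 in old replicate 1, 2 in old replicate 3 and 1 in young replicate 4). They are descriptions. Intervals (95%, exact) and floors (3 counts) cover counting error only. Same-numbered libraries deviated together over all kept cells (correlations 0.111, 0.158 and 0.150 over 16666 genes, though 0.061 and 0.0097 within the members), so the numbers were taken as pairs. Old replicate 3 and young replicate 4, which share no number, reached 0.167, and pairs with different numbers reached 0.133 within the members. Doublets were marked with Scrublet (scanpy 1.11.5) at 0.8% per 1000 barcodes and left out in an alternative. Motifs were searched in RefSeq promoter windows. On simulated counts for 3 old and 3 young libraries, edgeR recovered 89% of genes changed by 2 on the log2 scale and 100% of those changed by 3.5 among 8163 genes. The interaction step, tested on 8475 genes, recovered 54% and 94% of the genes changed by these sizes. Each simulation changed 200 genes at once, all with a mean of at least 20 CPM, and 9 unchanged genes were also called in each. These shares therefore do not give the recovery of lower genes, or of any gene where few genes change.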

Additional observations from a re-analysis of the deposited data

Results flagged for a closer look

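Gzma in young replicate 1 stood apart from the other young libraries. After thinning to 1500 UMIs it was seen in 24.0% of the 12 members of that library, against 3.26% to 5.42% in the other 3 young libraries. Its gap to the nearest library was 0.896 of the range of the young libraries, past Dixon's 95% limit of 0.829. Of 37 such tests run this was the 1 that passed, and chance passes about 1 in 20. A group of 12 cells allows up to 25% to go unseen, and Gzma is over 10 times higher in NK cells than in the members. The part of NK cells in the value was not tested.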

How the results depend on the processing

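The logit difference in the share of kept cells was 2.25 and kept its call in every setting with all 7 libraries. Leaving out 1 library gave 1.96 to 2.47, with exact permutation p no lower than 0.0667, the smallest that 2 old against 4 young libraries allow. The difference within T cells was 1.23. It was 1.07 with the stricter cell filter (500 genes, 5% mitochondrial UMIs), 1.17 with the rule after thinning and 1.53 with 10 Ccl5 UMIs, where the call was lost, and 0.972 to 1.42 without 1 library. With the replicate block the 2 shares gave 2.26 and 1.13 over 3 pairs, which cannot pass, and 0 genes higher and 0 lower. The block changed no other call.

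The gene counts depended on the setting. Genes higher and lower numbered 7 and 12 in DESeq2, 4 and 2 with 2 Ccl5 UMIs, 13 and 1 with 10, and 1 and 1 at equal UMIs per cell. They numbered 2 and 1 with libraries of 10 cells, and 99 and 166 among 16189 genes with no expression filter. Leaving out 1 library gave 0 to 2 higher and 0 to 3 lower (0 lower without old replicate 1, old replicate 2, young replicate 3 or young replicate 4, and 3 without young replicate 2). In the interaction, 2 and 2 genes passed with 2 Ccl5 UMIs, 8 and 3 with 10, 0 and 3 in DESeq2 and 17 and 20 unfiltered. Leaving out 1 library gave 0 higher and 0 to 6 lower, the 6 without young replicate 4. The cause of these shifts was not tested. The requirement of 10 Ccl5 UMIs was chosen after seeing the data, and it also brought young replicate 1 into the fit. Asking for 2 Ccl5 UMIs turned the sign of 13 of 90 named genes and asking for 10 that of 14 of 70, none of which had passed edgeR. Among the genes followed through every setting, Cd200 went to 0.33, Fos to 0.058 and Zfp36 to 0.27 with 2 Ccl5 UMIs, and Atf3 to 0.90, Fos to 0.62, Mt1 to 0.31 and Zfp36 to 0.94 with 10. Zfp36 went to 0.031 with libraries of 10 cells. The gap in the share with Gzmk was 20.01 percentage points, and 38.2 without thinning. Leaving out cells with 2 UMIs of other lineages could not be fitted, because nearly all members hold them. With 12 to 44 members per young library, low genes were not detectable.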
